A study of Homo sapiens with 12 samples.

Results

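The transcriptome of HepG2 cells, a human line derived from a liver hepatocellular carcinoma, was compared between cells incubated for 24 h with HME, an extract of the red macroalga Hypnea musciformis, and untreated cells. The comparison rests on 6 of the 12 libraries of the series, 3 HME libraries and 3 control libraries, all labelled as wild-type HepG2, and the members were chosen by cell line and treatment alone. The labels put the extract at its IC50, the concentration at which proliferation is inhibited to a set level, and give it as 0.7 mg/ml, while the study's methods state a slightly higher concentration. The controls are labelled as untreated, so an effect of any vehicle cannot be told apart from that of the extract. The study describes the replicates as biological, and p-values measure the spread between these cultures. The line was kept in DMEM with fetal bovine serum, while whether serum was present during the incubation is not given in the sources used here.

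Libraries were made with a 3′ mRNA kit (QuantSeq), in which a read marks the end of a polyadenylated transcript, and the deposited counts per 3′ region were summed by gene. The table lists 57736 genes, and HepG2 libraries held reads of 24458. The libraries held between 1790841 (HME 3) and 3656662 (control 1) counts. Values below are CPM (counts scaled by TMM to a common library size), given in the order of replicates 1, 2 and 3, and coordinates of 3′ regions are on GRCh37 (hg19). In this bulk measurement fewer cells expressing a gene and less RNA per cell cannot be told apart. A count of 0 allows up to 3 counts, at most 1.84 CPM in a control library and 1.69 CPM in an HME library, a floor that covers counting error only.

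As background, hepatocytes make most plasma proteins and lipoproteins, convert cholesterol to bile acids, detoxify drugs in an oxidation step and a conjugation step, and keep blood glucose and ammonia in range. These functions are run by liver-enriched transcription factors such as HNF4A and CEBPA, and HepG2 cells keep the secretory functions better than the drug-metabolizing ones. Stressed cells switch on immediate-early genes through MAP kinases, and NRF2, ATF4, p53 and metal-responsive transcription factors each drive a defence program of their own.

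Genes were tested by edgeR's quasi-likelihood test between the 3 HME and 3 control libraries. A gene is called DE when it met the thresholds of the study, a log2 fold change past 0.58 either way with p under 0.05 before adjustment. The words rose and fell are kept for genes with a Benjamini-Hochberg adjusted p under 0.05 over all 11343 tested genes. Over all tested genes, 1282 (11.3%) were DE and higher with HME and 1235 (10.9%) DE and lower. Every count of DE members of a list below is to be read beside these shares. At an adjusted p under 0.05, 314 genes (2.77%) rose and 61 (0.538%) fell, and the groups of 3 did not overlap for 30.8% of all tested genes. Scaling by library size in place of TMM moved the median over tested genes from -0.04 to -0.20 on the log2 scale. The DE genes then split into 861 higher (33.2%) and 1729 lower, against 50.9% higher with TMM, so that small shifts of a list are read against this change.

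A pair of libraries stood apart. Across genes, log2 CPM of control 2 correlated with the other controls at r = 0.829 and 0.833, against 0.948 between controls 1 and 3, as a description over genes that are not independent replicates. Control 2 had less of ALB (6969, 2116 and 5795 CPM in the controls) and FGB (812, 233 and 707 CPM) and more of APOA1 (1146, 3057 and 1034 CPM) than the other controls. HME 2 alone carried 745.9 CPM of SRGN (0 counts in the 5 other libraries), 511 CPM of COL1A1 and 378 CPM of COL1A2 (at most 15 counts of either in any other library), 56.4 CPM of VIM, and 2361 counts of GSTP1 (at most 17 elsewhere). The summed level of the 12 mesenchymal markers was 161.7 to 197.7 CPM in controls and 139.4 to 1146.6 CPM with HME, while without HME 2 no HME library reached the lowest control. DCN was at 0 and COL6A3 and PDGFRB at or under 3 counts in every library. The part of these transcripts in the results was not tested, and values that rest on HME 2 are given without it.

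All libraries carried the hepatocyte markers of their label, while HME 2 also carried the transcripts given above. All 13 hepatocyte markers were measured, and they summed to 21965 to 24217 CPM in controls and 16998 to 18758 CPM with HME. Of the 12 intestinal markers, MUC2 and SI were at 0 and CDX1, CDX2, CDH17 and GUCA2A at or under 3 counts in every library, and FABP1 and VIL1, which liver cells also express, made up most of their sum of 498.3 to 1126.7 CPM. Of the blood cell markers PTPRC, HBB and CD3E were at 0, and LYZ made up most of the sum except in HME 2, which carried SRGN, with a sum of 101.6 to 504.0 CPM in controls and 406.1 to 1117.8 CPM with HME (at most 518.9 CPM without HME 2). Endothelial markers summed to at most 7.4 CPM, with KDR, TEK, CLDN5 and EMCN at 0.

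The number of calls depended on single libraries. Among the 76 genes named below or covered by the same rule that rose, 34 kept an adjusted p under 0.05 whichever library was left out. None of the 25 that fell did (edgeR). Without HME 3, all 25 were above 0.05 (between 0.0629 and 0.194), without HME 2, 24 of them (up to 0.205), and without HME 1, 22 (up to 0.189). Without control 1 or control 3, 10 and 13 of them were above 0.05 (up to 0.0821 and 0.13), and without control 2 none was (at most 0.0426). For genes that rose, the highest adjusted p was 0.186 without HME 3, 0.174 without HME 2, 0.156 without HME 1, 0.118 without control 3, 0.0964 without control 1 and 0.0485 without control 2. The highest value of a gene over these runs is given below as its leave-one-out adjusted p.

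Among genes of liver function, DE and lower calls outnumbered DE and higher ones. The 21 liver lists hold 505 different genes, 388 of which were tested. Of these, 38 (9.8%) were DE and higher and 80 (20.6%) DE and lower, beside 11.3% and 10.9% of all tested genes, and the median log2 fold change was -0.30 beside -0.04. At an adjusted p under 0.05, 16 rose and 13 fell. When 1 library was left out, the DE and lower members numbered from 56 without HME 3 to 90 without control 2 and the DE and higher ones from 36 without HME 2 or 3 to 51 without control 2. With control 2 and HME 2 both left out they were 83 and 46. Library-size scaling gave 102 lower and 32 higher.

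**Figure D1:**
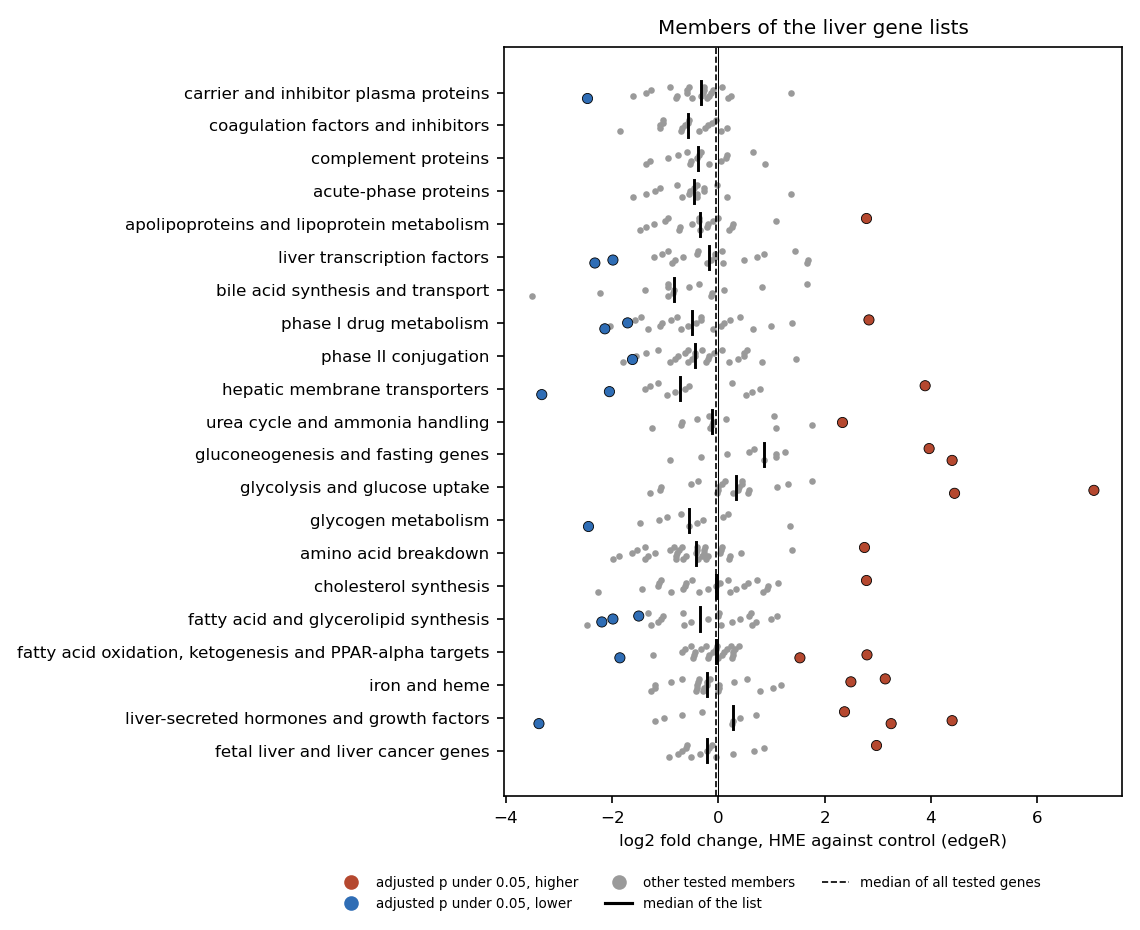
Log2 fold change (edgeR, HME against control, x axis) of each tested member of the 21 liver gene lists (rows), with 1 point per gene, filled red or blue where the adjusted p was under 0.05, a bar at the median of the list and a dashed line at the median of all tested genes (-0.04). The median lay between -0.84 for bile acid synthesis and transport and 0.86 for gluconeogenesis and fasting genes.

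Transcripts of AHSG, ALB, AFP and AMBP, the highest of the carrier and inhibitor list in controls, did not pass the test, nor did TF. Albumin (ALB), the main carrier protein of plasma, was at 6969, 2116 and 5795 CPM in the control libraries and 4790, 4323 and 4052 CPM with HME. Transferrin (TF), the iron carrier of plasma, was at 2338, 3010 and 1852 CPM in the control libraries and 1834, 2183 and 2198 CPM with HME, and alpha-fetoprotein (AFP), the albumin of the fetal liver, at 5045, 3349 and 3519 CPM in the control libraries and 2329, 3024 and 2581 CPM with HME. The HME values of ALB lay inside the range of the controls, those of TF overlapped it, and those of AFP lay below all controls (log2 fold change -0.59, adjusted p = 0.328). Among 23 of 26 tested carrier and inhibitor proteins, 1 was DE and higher and 4 were DE and lower (median -0.34). The higher one was SERPINA3, an inhibitor of chymotrypsin-like proteases and an acute-phase protein, at 589, 427 and 736 CPM without and 1855, 1242 and 1396 CPM with HME (log2 fold change 1.36, SE 0.35, adjusted p = 0.0658). The values with HME were all above those of the controls.

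The only member of this list that fell was ITIH1, a heavy chain of inter-alpha-trypsin inhibitor that stabilizes the hyaluronan matrix, at 7.95, 18.97 and 12.3 CPM without and 2.94, 1.64 and 2.25 CPM with HME (log2 fold change -2.47, SE 0.52, adjusted p = 0.0328, leave-one-out adjusted p 0.147 without HME 2). LRG1, a leucine-rich acute-phase glycoprotein (-1.62), and SERPINA4, the kallistatin inhibitor of tissue kallikrein (-1.27), were DE and lower, and without control 2 the difference of LRG1 was -0.8. ITIH3, another heavy chain of the same inhibitor, was DE and lower (-1.37), but this rested on control 2, with controls at 36.9, 197 and 68.1 CPM and HME at 48.9, 31.8 and 35.4 CPM, and without control 2 its log2 fold change was -0.42.

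Coagulation factors held DE and lower members and none that passed the adjusted test. Of 17 of 21 tested, 6 were DE and lower (35.3%) and 0 DE and higher (median -0.57), and the count of lower members ranged from 1 without HME 1 to 5 without control 1, 2 or 3 when 1 library was left out. Among the fibrinogen chains, which form the fibrin clot, FGG was at 1829, 2160 and 1166 CPM in the control libraries and 632, 941 and 830.3 CPM with HME (log2 fold change -1.101, SE 0.36, adjusted p = 0.117). FGA was at 1508, 1666 and 1546 CPM without and 960.2, 982 and 1257 CPM with HME (log2 fold change -0.56, adjusted p = 0.303). FGB was at 812, 233 and 707 CPM without and 654, 645 and 659.5 CPM with HME (0.16, 0.852). All HME values of FGG and FGA were below those of the controls, while those of FGB lay between the values of control 2 and the other controls. KNG1, the precursor of bradykinin (-1.85), CPB2, a carboxypeptidase that protects clots from lysis (-1.03), and F12, the starter of the contact pathway (-1.103), were also DE and lower, and F2, prothrombin, was not (-0.25, adjusted p = 0.691).

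Complement and acute-phase genes held no member that passed the adjusted test. Of 16 of 22 tested complement genes, 3 were DE and lower (18.8%, beside 10.9% of all tested genes) and 0 higher (median -0.38), with 0 without HME 1 or 3 to 3 without control 1, 2 or 3 lower when 1 library was left out. They were C4BPB, a chain of the C4-binding inhibitor (-1.29), C4A, the fourth component (-0.76), and CLU, the secreted chaperone clusterin (-1.36). CLU was at 340.5, 1601 and 434 CPM without and 288, 300.1 and 338 CPM with HME, so its difference rested on control 2, and without that library it was -0.31. C3, the central component, was at 335, 471 and 579.7 CPM without and 456, 295 and 297 CPM with HME (adjusted p = 0.521). Of 17 of 21 tested acute-phase genes, 1 was DE and higher, the SERPINA3 described above, and 3 DE and lower (17.6%), and CRP and SAA1 were at 0 counts in every library.

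APOB (ENSG00000084674, chr2:21224104-21224601, minus strand, in the 3′ UTR), the structural protein of very-low-density lipoprotein, was at 1963, 3160 and 2856 CPM in the control libraries and 1216, 1001 and 878 CPM with HME (log2 fold change -1.37, SE 0.34, unadjusted p = 0.00266, adjusted p = 0.0604). It was DE and lower with no overlap.

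Further genes of lipoprotein assembly were DE and lower. MTTP, which loads lipid onto APOB, was at 61.9, 45.3 and 46.4 CPM without and 26.9, 30.1 and 19.7 CPM with HME (-0.999). APOA5, an activator of triglyceride clearance, was at 139, 168 and 137 CPM without and 68.4, 78.95 and 80.9 CPM with HME (-0.96). LCAT, which esterifies plasma cholesterol, was at 14.7, 17.7 and 31.2 CPM without and 11.03, 3.604 and 8.43 CPM with HME (-1.47). APOA1, the main protein of high-density lipoprotein, was DE and lower (-1.22) with controls at 1146, 3057 and 1034 CPM and HME at 834, 686 and 725 CPM, and without control 2 the difference was -0.53. APOA2 (0.21, adjusted p = 0.779) and APOE (-0.095, 0.89) did not pass. In all, 20 of 25 listed genes were tested, 5 of them DE and lower and 1 DE and higher (median -0.35), with 3 without HME 2 or 3 to 5 without control 1 lower when 1 library was left out.

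Of the liver transcription factors, HNF4A, the central activator of hepatocyte genes, was at 281, 103 and 173 CPM without and 107, 142 and 180.3 CPM with HME with overlapping groups (adjusted p = 0.615). MLXIPL (ENSG00000009950, chr7:73007327-73008595, minus strand, over the end of the coding sequence and the 3′ UTR), the glucose-responsive activator ChREBP, was at 96.2, 248 and 114 CPM in the control libraries and 33.5, 40.3 and 41.6 CPM with HME. CEBPA (ENSG00000245848, chr19:33790840-33792243, minus strand, in the 3′ UTR), which keeps hepatocytes differentiated, was at 149.9, 314 and 102 CPM in the control libraries and 19.5, 48.8 and 44.4 CPM with HME. Both fell, MLXIPL with log2 fold change -1.99, SE 0.41, adjusted p = 0.0324 and CEBPA with log2 fold change -2.33, SE 0.51, adjusted p = 0.04, and the HME values of both lay below all controls. Their leave-one-out adjusted p was 0.153 without HME 1 and 0.155 without HME 1, and the region of CEBPA overlaps that of AC008738.1, a pseudogene on the same strand whose counts cannot be told from its own. Without control 2 the log2 fold change of CEBPA was -1.73. Without control 2 the difference of AC008738.1 was -1.76.

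The other factors that were DE were higher in 3 cases. CEBPB, the inflammatory relative of CEBPA, was at 7.23, 7.95 and 15.2 CPM without and 42.7, 22.9 and 33.1 CPM with HME (1.69, adjusted p = 0.0588). CREB3L3, a membrane-bound factor induced by fasting, was at 19.04, 14.1 and 6.52 CPM without and 31.6, 31.4 and 46.1 CPM with HME (1.44, 0.0921). NR0B2, the repressor SHP that limits bile acid synthesis, was at 47.5, 16.5 and 83.7 CPM without and 213, 129 and 132 CPM with HME (1.67, 0.109). All HME values of these genes exceeded the controls. RXRA, the shared partner of nuclear receptors (-0.88), and NR1H3, the oxysterol receptor LXR-alpha (-1.22, with overlapping groups, and -0.59 without control 2), were DE and lower, and the direction of FOXA3 depended on control 2 (65.1, 277 and 62.3 CPM without and 90.5, 125 and 168 CPM with HME). Of 22 of 26 tested factors, 3 were DE and higher (13.6%) and 4 DE and lower (18.2%, median -0.18). Without control 3 the log2 fold change of NR0B2 was 2.28.

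Bile acid genes had the lowest median of the liver lists (-0.84), with 5 of 15 tested members DE and lower, 1 higher and none past the adjusted test (4 without HME 2 or 3 to 6 without control 2 or HME 1 lower when 1 library was left out). AKR1D1, which reduces the bile acid ring, was at 12.3, 40.4 and 14.9 CPM without and 4.41, 5.897 and 3.37 CPM with HME (log2 fold change -2.23, adjusted p = 0.0559). AMACR, which prepares the side chain for shortening, was at 25.6, 22.6 and 19.6 CPM without and 6.99, 9.17 and 10.1 CPM with HME (-1.37, 0.059). CYP8B1, the sterol hydroxylase that makes cholic acid, was at 5.06, 7.34 and 7.25 CPM without and 1.47, 0 and 0 CPM with HME, with 4 or fewer counts in each HME library. These genes had no overlap between the groups, and without control 2 the difference of AKR1D1 was -1.51. Without HME 1, CYP8B1 was at 0 counts in both remaining HME libraries and its adjusted p was 0.0471, while without HME 2 its log2 fold change was -2.85 and its adjusted p 0.196. CYP7A1, the rate-limiting enzyme of the pathway, had 4, 6 and 3 counts in controls and 1, 0 and 0 with HME and was too low to test. CYP27A1, which starts the alternative pathway, was at 125, 165 and 132 CPM without and 143, 114 and 126 CPM with HME (adjusted p = 0.807).

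Of the membrane transporters, 1 rose and 2 fell. AQP3 (ENSG00000165272, chr9:33440955-33442040, minus strand, over the end of the coding sequence and the 3′ UTR), a channel for water and glycerol, was at 7.95, 4.89 and 11.2 CPM in the control libraries and 89.7, 121 and 156 CPM with HME. Its level rose with HME (log2 fold change 3.89, SE 0.41, adjusted p = 0.00208), and its adjusted p stayed at or below 0.0143 (reached without control 1). SLC22A7, the organic anion carrier OAT2, was at 7.95, 9.79 and 14.1 CPM without and 0.736, 1.97 and 0 CPM with HME and fell (log2 fold change -3.33, SE 0.69, adjusted p = 0.0328). ABCG8, a subunit of the sterol exporter of bile, was at 7.95, 7.34 and 11.6 CPM without and 2.57, 1.64 and 2.25 CPM with HME and fell (log2 fold change -2.05, SE 0.48, adjusted p = 0.0498). The HME libraries held at most 6 counts of SLC22A7 and 7 of ABCG8, and their leave-one-out adjusted p was 0.147 without HME 1 and 0.205 without HME 2. ABCC6 (-1.13), SLC13A5, the citrate importer (-1.38, and -0.66 without control 2), and SLC2A2, the hepatic glucose transporter (-1.28, with overlapping groups), were DE and lower. Of 14 of 22 tested transporters, 5 were DE and lower and 1 DE and higher (median -0.73, 4 without control 1 or HME 1 or 2 to 9 without control 2 lower when 1 library was left out), and the uptake carriers SLCO1B1, SLCO1B3 and SLC10A1 had at most 1 count in any library. Without HME 2 the log2 fold change of SLC22A7 was -4.46.

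Many enzymes of drug oxidation were not detected in these cells. Of the phase I genes 24 of 46 listed were tested, and CYP2A6, CYP2C8 and CYP2C19 had no count, while CYP3A4, CYP2B6 and CYP2E1 had at most 2 in a library. CYP1A1 (ENSG00000140465, chr15:75011686-75012829, minus strand, in the 3′ UTR), the hydrocarbon-inducible P450, was at 67, 21.4 and 49.3 CPM in the control libraries and 284, 334 and 374 CPM with HME. It rose (log2 fold change 2.83, SE 0.44, adjusted p = 0.00925), with a leave-one-out adjusted p of 0.0549 without HME 3. CYP2W1, an oncofetal P450, was at 55.7, 55.7 and 67.8 CPM without and 22.1, 15.7 and 16.9 CPM with HME and fell (log2 fold change -1.71, SE 0.31, adjusted p = 0.0179, leave-one-out 0.116 without HME 3). ADH4, which oxidizes retinol and ethanol, was at 25.6, 63.02 and 25.7 CPM without and 5.88, 11.1 and 8.43 CPM with HME and fell (log2 fold change -2.14, SE 0.47, adjusted p = 0.04, leave-one-out 0.166 without HME 1). Values with HME were outside the control range for all 3.

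ADH6 (-2.05, adjusted p = 0.0518), the flavin oxygenase FMO5 (-1.33, 0.0662) and the carboxylesterase CES2 (-1.45, 0.16) were DE and lower, and without control 2 the differences of ADH6 and CES2 were -1.46 and -0.59. The reductase POR, which feeds electrons to P450 enzymes, was DE and higher at 128, 166 and 102 CPM without and 212, 259 and 312 CPM with HME (0.98, 0.124), and so was CYP4F11 (1.38, 0.1). The phase I list held 3 DE and higher and 7 DE and lower genes (median -0.49).

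Among 27 of 37 tested conjugation genes, 5 were DE and lower and 1 DE and higher (median -0.44). GSTA1, the main liver glutathione transferase, was at 110.1, 78.9 and 95.3 CPM without and 30.9, 35.4 and 25.8 CPM with HME and fell (log2 fold change -1.62, SE 0.31, adjusted p = 0.0216, leave-one-out 0.143 without HME 3), with no overlap between groups. GSTA2, a close copy whose reads may be shared with GSTA1, was at 12.3, 6.73 and 17.03 CPM without and 2.21, 5.24 and 2.81 CPM with HME (-1.79, adjusted p = 0.0903). The glucuronosyltransferases UGT2B10 (-1.55) and UGT2B7 (-1.37, with overlapping groups, and -0.75 without control 2) were DE and lower, and UGT1A1 was DE and higher at 8.19, 8.57 and 7.25 CPM without and 11.8, 23.3 and 31.5 CPM with HME (1.46, 0.0903), in a 3′ region that several UGT1A genes share. GSTO1 (0.201, adjusted p = 0.729) and SULT2A1 (-0.18, 0.833) did not pass.

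**Figure D2:**
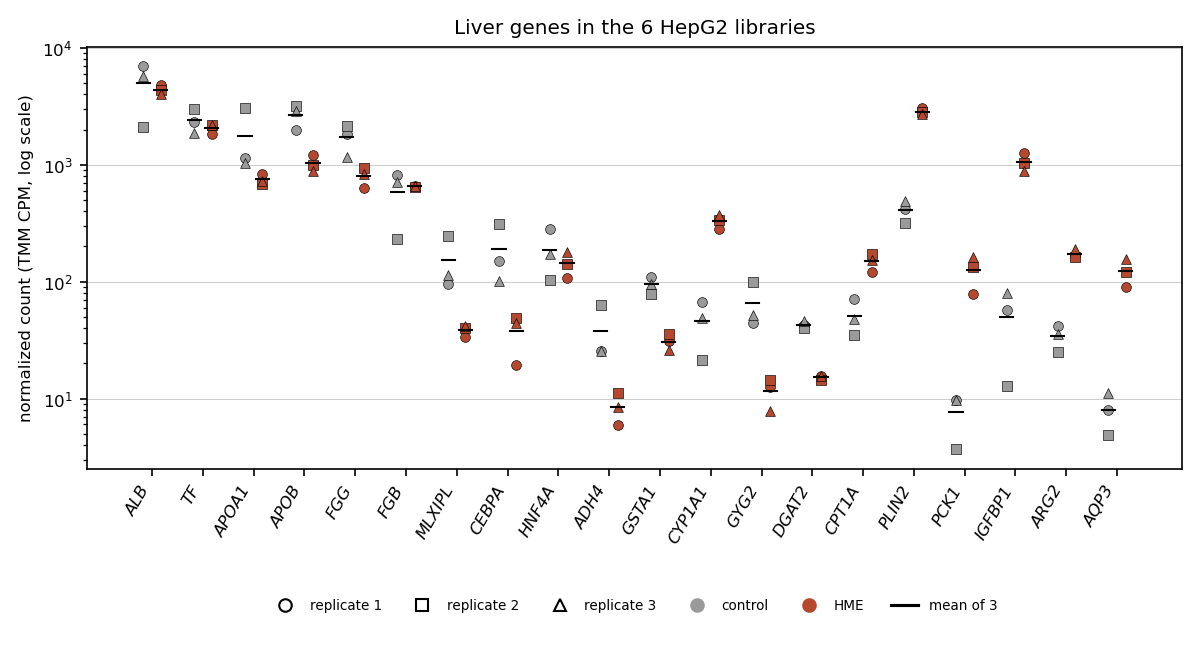
TMM-normalized CPM (log axis) of 20 liver genes in the 3 control (grey) and 3 HME (red) HepG2 libraries, with a symbol for each replicate and a bar at the mean of 3. CPT1A, PLIN2, PCK1, IGFBP1, ARG2, AQP3 and CYP1A1 lay above all controls with HME, APOA1, APOB, FGG, MLXIPL, CEBPA, ADH4, GSTA1, GYG2 and DGAT2 lay below, and ALB, TF, FGB and HNF4A overlapped.

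Fasting genes stood against the lower liver lists. PCK1 (ENSG00000124253, chr20:56140861-56141710, plus strand, in the 3′ UTR), the cytosolic enzyme that commits carbon to glucose, was at 9.64, 3.67 and 9.78 CPM in the control libraries and 78.7, 134 and 163 CPM with HME. IGFBP1 (ENSG00000146678, chr7:45932691-45933464, plus strand, in the 3′ UTR), an insulin-repressed binding protein of insulin-like growth factors, was at 56.9, 12.8 and 79.7 CPM in the control libraries and 1257, 1043 and 884 CPM with HME. Both rose, PCK1 with log2 fold change 3.97, SE 0.47, adjusted p = 0.00251 and IGFBP1 with log2 fold change 4.401, SE 0.61, adjusted p = 0.00527. All HME values lay above the controls by a wide margin, and the adjusted p stayed at or below 0.0157 (reached without control 3) and 0.0274 (reached without control 1).

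Of 11 of 18 tested genes of the list, 5 were DE and higher and 1 DE and lower (median 0.86, 4 without control 3 or HME 2 or 3 to 7 without control 2 higher when 1 library was left out). GOT1, the cytosolic aspartate transaminase, was at 77.6, 112 and 93.5 CPM without and 202, 179.9 and 221 CPM with HME (1.09, adjusted p = 0.0791). CRTC2, a co-activator of CREB in fasting, was at 4.58, 3.67 and 4.71 CPM without and 7.72, 8.52 and 15.7 CPM with HME (1.25, 0.15). SLC37A4, which carries glucose 6-phosphate into the ER for release of glucose, was DE and lower at 40.97, 39.8 and 57.6 CPM without and 26.9, 22.3 and 24.7 CPM with HME (-0.91, 0.127). The mitochondrial PCK2 was at 72.3, 14.1 and 78.99 CPM without and 76.9, 69.5 and 41.01 CPM with HME, with overlapping groups. G6PC had at most 8 and FBP1 at most 2 counts in any library, so the last steps of glucose synthesis were not measurable at this depth.

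In glycolysis PFKFB3 and HK1 rose, and the most abundant enzymes did not pass. PFKFB3 (ENSG00000170525, chr10:6274858-6277692, plus strand, over the end of the coding sequence and the 3′ UTR), which makes the activator fructose 2,6-bisphosphate, was at 4.82, 4.89 and 5.43 CPM in the control libraries and 86.4, 107 and 140.4 CPM with HME. The gene rose (log2 fold change 4.45, SE 0.36, adjusted p = 0.00062) and kept an adjusted p at or below 0.00959 (reached without control 1). Hexokinase HK2, which traps glucose, was DE and higher at 26.03, 4.28 and 22.1 CPM without and 58.1, 70.4 and 53.9 CPM with HME (1.76, adjusted p = 0.0925). The glucose transporter SLC2A1 was DE and higher at 124, 45.3 and 112 CPM without and 246, 217 and 239 CPM with HME (1.31, 0.1). HK1 rose with 0, 0.612 and 1.09 CPM in controls and 11.03, 195 and 7.303 CPM with HME, where the highest value is that of HME 2, and without HME 2 its log2 fold change was 4.11 and its adjusted p 0.0729. SLC2A3 (-1.08) and PFKFB2 (-1.09) were DE and lower. GAPDH (1081, 800.3 and 1313 CPM without and 1277, 2293 and 1120 CPM with HME), ENO1 (0.07) and ALDOA (0.001) had overlapping groups. The list held 5 higher (22.7%) and 3 lower (13.6%) DE genes of 22 tested (median 0.32). The log2 fold change of HK1 was 6.24 without control 1 and 8.3 without control 3.

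Of the glycogen genes, 4 of 11 tested members were DE and lower and 1 higher (median -0.55). GYG2 (ENSG00000056998, chrX:2799133-2801056, plus strand, over the end of the coding sequence and the 3′ UTR), the liver form of glycogenin that primes glycogen, was at 44.1, 99.1 and 52.2 CPM in the control libraries and 12.5, 14.4 and 7.87 CPM with HME. It fell (log2 fold change -2.46, SE 0.42, adjusted p = 0.014), and its leave-one-out adjusted p was 0.086 without HME 3. The branching enzyme GBE1 was DE and higher at 10.1, 9.18 and 18.1 CPM without and 36.4, 35.7 and 24.2 CPM with HME (1.36, adjusted p = 0.0817). PGM1 (-0.97) and PPP1R3E (-1.11) were DE and lower.

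In nitrogen metabolism, ARG2 (ENSG00000081181, chr14:68117526-68118634, plus strand, over the end of the coding sequence and the 3′ UTR, in a region that overlaps VTI1B), the mitochondrial arginase, was at 41.7, 25.1 and 35.5 CPM in the control libraries and 165, 161 and 191 CPM with HME. Its level rose with HME (log2 fold change 2.33, SE 0.33, adjusted p = 0.00531), with an adjusted p at or below 0.0425 (reached without HME 3). The hepatic arginase ARG1 and OTC, both of the urea cycle, had at most 2 and 5 counts in any library. NAGS, which makes the activator of the first urea cycle step, was DE and higher at 9.64, 2.45 and 11.2 CPM without and 37.5, 25.6 and 19.1 CPM with HME (1.76, adjusted p = 0.0859), as was glutamine synthetase GLUL at 578, 201 and 709.8 CPM without and 866, 1026 and 1189 CPM with HME (1.05, 0.21). ASL, argininosuccinate lyase, was DE and lower at 25.1, 45.9 and 26.1 CPM without and 12.9, 11.8 and 15.7 CPM with HME (-1.26, 0.0903). The list held 4 higher and 1 lower DE genes of 13 tested.

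Amino acid breakdown held 9 DE and lower and 2 DE and higher genes of 35 tested (median -0.43, 5 without HME 1 to 12 without control 2 lower when 1 library was left out), and library-size scaling gave 15 lower and 1 higher. CTH, which makes cysteine from cystathionine, was at 2.65, 1.22 and 2.54 CPM without and 13.6, 16.4 and 16.3 CPM with HME and rose (log2 fold change 2.75, SE 0.44, adjusted p = 0.0108, leave-one-out 0.0629 without HME 3). KYNU, of tryptophan breakdown, was DE and higher at 31.8, 5.51 and 29.4 CPM without and 53.3, 56.02 and 68.5 CPM with HME (1.38, adjusted p = 0.164). PRODH2 (-1.86, 0.0573), GCDH (-1.98, 0.0881), FTCD (-1.63, 0.143) and AGXT (-1.32, 0.143), enzymes of hydroxyproline, lysine, histidine and glyoxylate breakdown, were DE and lower, with control 2 the highest control for PRODH2, GCDH and FTCD. Without control 2 these 3 were at -1.2, -1.1 and -0.66. HGD, of tyrosine breakdown, was at 288, 296 and 253 CPM without and 228, 342 and 294 CPM with HME. The groups of HGD overlapped.

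Lipid synthesis genes were DE and lower in 9 of 24 tested cases and higher in 1 (median -0.35), and the lower count ranged from 8 without HME 1 or 3 to 10 without control 2 when 1 library was left out. DGAT2 (ENSG00000062282, chr11:75511410-75512776, plus strand, over the end of the coding sequence and the 3′ UTR), which makes the last step of triglyceride synthesis, was at 42.9, 40.4 and 45.7 CPM in the control libraries and 15.4, 14.4 and 15.7 CPM with HME. DGAT1, an unrelated enzyme of the same step, was at 138, 292 and 66.7 CPM without and 30.2, 39.3 and 38.8 CPM with HME. Both fell, DGAT2 with log2 fold change -1.500, SE 0.29, adjusted p = 0.0247 and DGAT1 with log2 fold change -2.19, SE 0.51, adjusted p = 0.0493, and their leave-one-out adjusted p was 0.138 without HME 2 and 0.189 without HME 1. The replicates of DGAT2 were close within each group, while those of DGAT1 spread widely among the controls, and without control 2 its log2 fold change was -1.5.

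Fatty acid synthase FASN was DE and lower at 299, 310.2 and 313 CPM without and 169, 115 and 165 CPM with HME (-1.04, adjusted p = 0.092). The stearoyl desaturase SCD was at 759, 709 and 758 CPM without and 544, 523 and 497 CPM with HME, all HME values below the controls (-0.51, 0.318). ACLY, which supplies acetyl-CoA, was at 370.2, 195 and 359 CPM without and 339, 374 and 386 CPM with HME (adjusted p = 0.693). ACSL3, which activates fatty acids on lipid droplets, was DE and higher at 162, 105 and 129 CPM without and 223, 294 and 272 CPM with HME (0.99, 0.11). LPIN3, a phosphatidate phosphatase, was DE and lower (-2.48), with control 2 at more than the other controls (45.5, 272 and 57.2 CPM), and without control 2 the difference was -1.19.

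In the list of fatty acid oxidation, ketogenesis and PPAR-alpha targets 2 genes rose and 1 fell. PLIN2 (ENSG00000147872, chr9:19115563-19116245, minus strand, in the 3′ UTR), the coat protein of lipid droplets in liver cells, was at 419, 320.0 and 491 CPM in the control libraries and 3039, 2811 and 2704 CPM with HME. It rose (log2 fold change 2.798, SE 0.34, adjusted p = 0.00283) and kept an adjusted p at or below 0.0199 (reached without HME 1). CPT1A, which lets long-chain fatty acids into mitochondria, was at 70.9, 34.9 and 47.5 CPM without and 121, 173 and 152 CPM with HME and rose (log2 fold change 1.53, SE 0.35, adjusted p = 0.0493, leave-one-out 0.174 without HME 3). EHHADH, a bifunctional enzyme of peroxisomal oxidation, was at 20.7, 34.3 and 17.03 CPM without and 5.88, 8.85 and 4.49 CPM with HME and fell (log2 fold change -1.85, SE 0.42, adjusted p = 0.0473, leave-one-out 0.194 without HME 3). These were the members that passed, and 27 genes of the list were tested with 2 higher and 1 lower DE calls (median -0.05), shares below those of all tested genes.

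Cholesterol synthesis was mixed, with 3 DE and higher and 6 DE and lower genes of 25 tested (median -0.05). FDPS, which makes farnesyl diphosphate, was DE and lower without overlap (-0.898, adjusted p = 0.118). SC5D was DE and higher at 60.5, 31.2 and 63.05 CPM without and 125, 104 and 109 CPM with HME (1.12, 0.105), as was DHCR7 at 134, 62.4 and 156 CPM without and 250.8, 194 and 225 CPM with HME (0.92, 0.192). HMGCS1, at the start of the pathway, was at 396, 522 and 243 CPM without and 476, 497 and 486 CPM with HME with overlapping groups. TM7SF2 (-2.27) and EBP (-1.14) were DE and lower with controls dominated by control 2, and without it the differences were -1.03 and -0.44.

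Of the 25 tested iron and heme genes, 4 were DE and higher (16.0%) and 1 DE and lower (4.0%). Over all tested genes the shares were 11.3% and 10.9%. HMOX1 (ENSG00000100292, chr22:35789592-35790404, plus strand, in the 3′ UTR), which degrades heme, was at 90.4, 57.5 and 77.9 CPM in the control libraries and 426, 769.5 and 803 CPM with HME. The gene rose (log2 fold change 3.14, SE 0.39, adjusted p = 0.00288), with an adjusted p at or below 0.0226 (reached without control 3). SLC40A1, the iron exporter ferroportin, was at 11.3, 4.28 and 8.696 CPM without and 38.2, 43.6 and 61.2 CPM with HME and rose (log2 fold change 2.495, SE 0.41, adjusted p = 0.0118, leave-one-out 0.0719 without HME 3). The ferritin light chain FTL, an iron store, was DE and higher at 7889, 5226 and 8638 CPM without and 19670, 10750 and 13730 CPM with HME (1.02, adjusted p = 0.174), and the heavy chain FTH1 was at 2869, 1643 and 2635 CPM without and 4299, 3061 and 2974 CPM with HME (0.53, 0.408), in both cases with all HME values above the controls. ALAS1, the first enzyme of heme synthesis, was DE and higher (1.17), and ACO1, the iron regulatory protein and aconitase, DE and lower (-0.89).

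Secreted hormones changed in both directions. GDF15 (ENSG00000130513, chr19:18499746-18500183, plus strand, in the 3′ UTR), a stress hormone that acts on appetite, was at 509, 2010 and 552 CPM in the control libraries and 6543, 11600 and 11120 CPM with HME. Its level rose with HME (log2 fold change 3.25, SE 0.60, adjusted p = 0.0197), its leave-one-out adjusted p was 0.0804 without HME 3, and its log2 fold change was 4.22 without control 2. STC2, a secreted glycoprotein of stressed cells, was at 75.7, 23.9 and 64.5 CPM without and 190.5, 388 and 279 CPM with HME and rose (log2 fold change 2.38, SE 0.47, adjusted p = 0.0271, leave-one-out 0.102 without HME 2). EPO, the hormone of red cell formation, was at 15.9, 37.3 and 8.696 CPM without and 2.57, 2.62 and 0 CPM with HME and fell (log2 fold change -3.38, SE 0.77, adjusted p = 0.0468, leave-one-out 0.144 without HME 1), with 0 counts in HME 3 and a log2 fold change of -2.66 without control 2. LEAP2, the antagonist of ghrelin (-1.203), and SHBG, the sex hormone carrier (-1.03), were DE and lower. IGF2, a fetal growth factor, was at 2198, 789 and 1376 CPM without and 1200, 1783 and 2330 CPM with HME, with overlapping groups.

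Of 15 tested fetal liver and liver cancer genes, 1 rose and 0 were DE and lower (median -0.21). The gene was AKR1B10, an aldo-keto reductase that is high in liver cancer, at 49.4, 15.9 and 49.3 CPM without and 292, 283 and 329.8 CPM with HME (log2 fold change 2.96, SE 0.45, adjusted p = 0.0083), with an adjusted p at or below 0.0493 (reached without HME 3). GPC3, a glypican of fetal liver, was at 609, 758 and 726 CPM without and 707, 495 and 608 CPM with HME, and its groups overlapped.

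**Figure D3:**
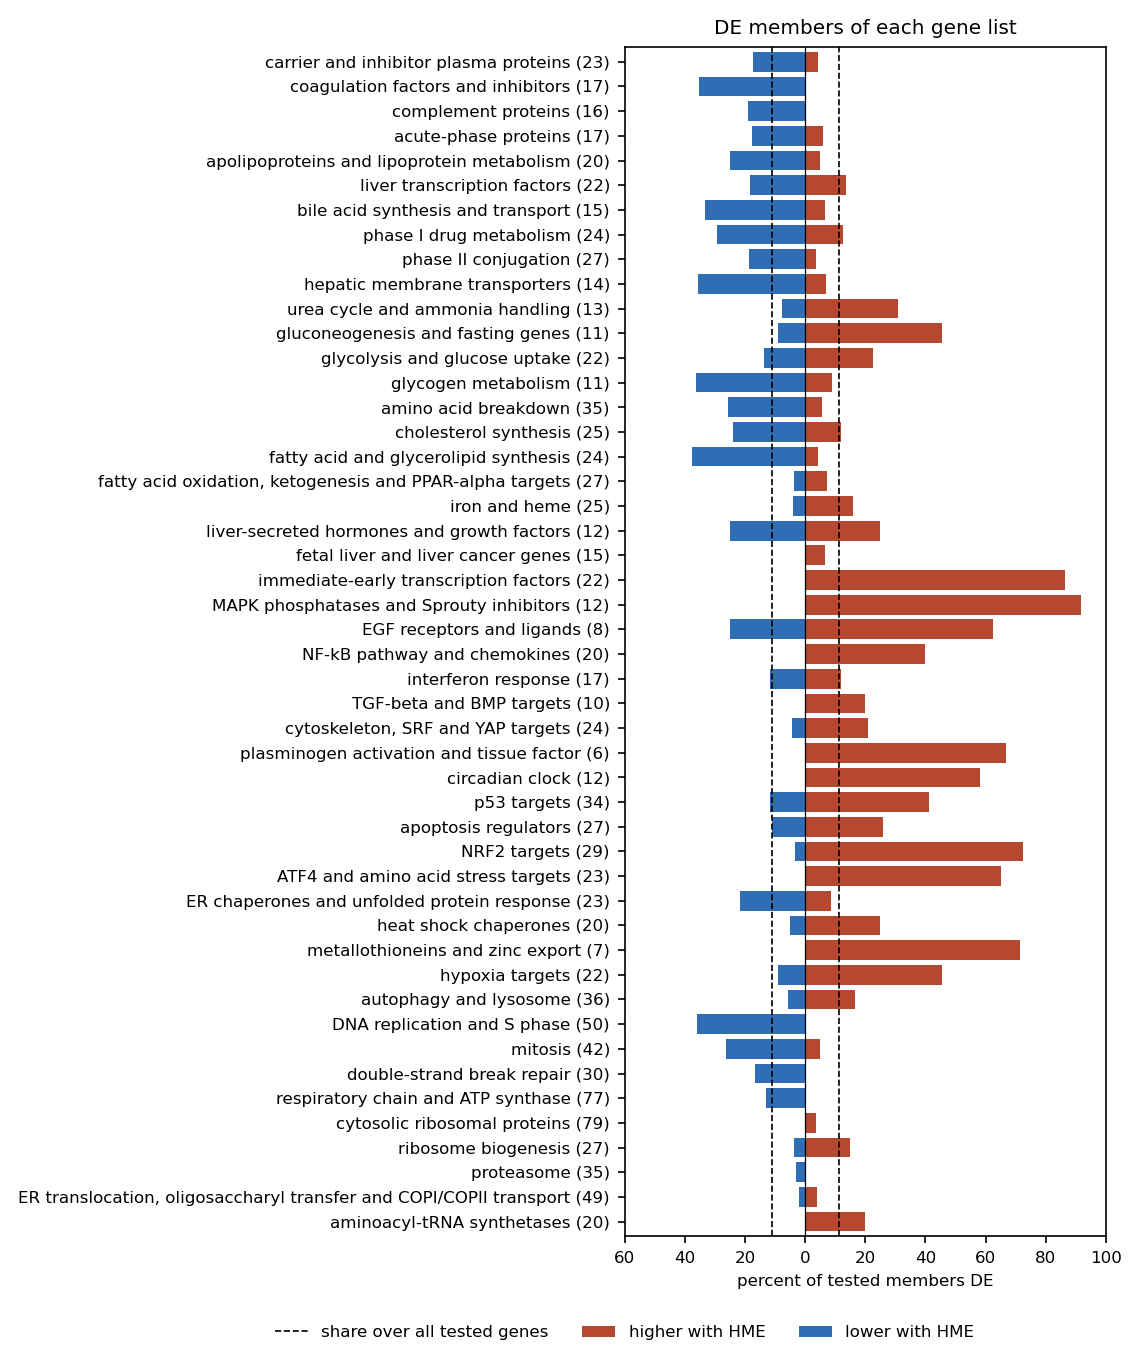
Percent of the tested members of each of 48 gene lists (number tested in brackets) that were DE, higher with HME to the right in red and lower to the left in blue, with dashed lines at the shares over all tested genes, 11.3% higher and 10.9% lower. Immediate-early, MAPK feedback, NRF2 and metallothionein lists reached furthest to the right, and fatty acid synthesis, glycogen and DNA replication furthest to the left.

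Of 22 tested immediate-early genes, 19 were DE and higher (86.4%). In all, 17 of them rose (median 3.37), with 11 without HME 3 to 20 without control 2 when 1 library was left out. IER3 (ENSG00000137331, chr6:30710779-30711878, minus strand), an inhibitor of apoptosis, was at 73.99, 52.6 and 72.1 CPM in the control libraries and 2868, 3280 and 3521 CPM with HME (log2 fold change 5.601, SE 0.39, adjusted p = 0.00062). The region of IER3 overlaps that of XXbac-BPG252P9.10. EGR1 was at 4.82, 4.28 and 1.09 CPM without and 156, 176 and 170.2 CPM with HME (log2 fold change 5.597, SE 0.51, adjusted p = 0.00101) and ATF3 at 5.302, 1.84 and 4.71 CPM without and 240.5, 158 and 202 CPM with HME (log2 fold change 5.57, SE 0.45, adjusted p = 0.00062). JUN, the AP-1 subunit, was at 62.2, 14.7 and 43.5 CPM without and 590.2, 747 and 706 CPM with HME (log2 fold change 4.07, SE 0.52, adjusted p = 0.00332), and all HME values of these genes exceeded the controls by a wide margin. FOS had 0 counts in each control but 20.2, 16.1 and 15.7 CPM after HME, which is at least 9.44-fold higher when 3 counts are allowed in each control library. KLF10 was at 4.34, 2.45 and 3.62 CPM without and 34.2, 467 and 47.8 CPM with HME, so its size rests on HME 2, without which its log2 fold change was 3.51. SRF was at 132, 133 and 137 CPM without and 178, 192 and 184 CPM with HME (adjusted p = 0.347).

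Of 12 tested phosphatases and Sprouty-type inhibitors, 11 were DE and higher and 7 rose (median 2.46, 2 without HME 3 to 9 without control 2 when 1 library was left out). The nuclear ERK phosphatase DUSP5 was at 1.45, 1.22 and 1.09 CPM without and 83.1, 48.2 and 63.5 CPM with HME (log2 fold change 5.62, SE 0.43, adjusted p = 0.00062). DUSP1 was at 5.302, 6.73 and 4.35 CPM without and 79.8, 59.95 and 68.5 CPM with HME (log2 fold change 3.68, SE 0.35, adjusted p = 0.00128). DUSP6, the cytoplasmic ERK phosphatase, was at 46.3, 15.3 and 55.4 CPM without and 163, 274 and 289 CPM with HME (log2 fold change 2.62, SE 0.49, adjusted p = 0.0197, leave-one-out 0.0904 without HME 3). HBEGF, a ligand of the EGF receptor, was at 1.21, 0 and 1.81 CPM without and 69.9, 35.4 and 50.6 CPM with HME and rose (log2 fold change 5.46, SE 0.59, adjusted p = 0.00208), as did AREG at 8.68, 12.2 and 7.97 CPM without and 29.8, 26.9 and 39.3 CPM with HME (log2 fold change 1.74, SE 0.35, adjusted p = 0.0271, leave-one-out 0.135 without HME 3), whose reads cannot be told from those of its copy AREGB. The receptors ERBB3 (-0.94) and ERBB2 (-0.86) were DE and lower, and EGFR itself was at 19.5, 12.8 and 12.3 CPM without and 18.02, 15.7 and 23.03 CPM with HME (adjusted p = 0.62).

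NF-kB genes and chemokines were DE and higher in 8 of 20 cases and lower in 0, with 5 without HME 3 to 12 without control 2 when 1 library was left out. IL8, which attracts neutrophils, was at 1.93, 3.06 and 5.797 CPM without and 72.5, 51.4 and 76.4 CPM with HME and rose (log2 fold change 4.22, SE 0.46, adjusted p = 0.00208). CCL20, which attracts lymphocytes and dendritic cells, was at 75.9, 14.7 and 27.5 CPM without and 349.7, 755 and 1070 CPM with HME and rose (log2 fold change 4.18, SE 0.67, adjusted p = 0.0112, leave-one-out 0.0542 without HME 3). NFKBIA, the inhibitor that returns NF-kB to the cytoplasm, was at 219.8, 66.7 and 194 CPM without and 978, 921 and 978 CPM with HME and rose (log2 fold change 2.58, SE 0.45, adjusted p = 0.0165, leave-one-out 0.0758 without HME 3). The interferon list had 2 higher and 2 lower DE members of 17, close to the shares of all tested genes. Without control 1 the log2 fold change of CCL20 was 5.09.

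Of 6 tested genes of plasminogen activation, 4 were DE and higher and 3 rose. PLAU, the urokinase that activates plasminogen, was at 5.06, 2.45 and 4.35 CPM without and 58.5, 60.9 and 101.1 CPM with HME (log2 fold change 4.14, SE 0.42, adjusted p = 0.0018). It kept its call whichever library was left out, and no value overlapped. ANXA2, a receptor of the plasminogen system, was at 43.6, 50.8 and 90.2 CPM without and 80.2, 1960 and 50.6 CPM with HME, and its DE call rested on HME 2, with a log2 fold change of 0.11 and an adjusted p of 0.926 without it. In the list of TGF-beta and BMP targets ID3 was DE and higher (61.2, 8.57 and 25.7 CPM without and 76.1, 162 and 188 CPM with HME). Of 24 tested cytoskeletal, SRF and YAP targets 5 were DE and higher, among them CYR61 at 13.7, 20.8 and 12.3 CPM without and 34.6, 65.5 and 38.2 CPM with HME and ANKRD1 at 18.6, 11.6 and 26.8 CPM without and 45.97, 47.8 and 44.9 CPM with HME, while CTGF was at 117, 138 and 69.2 CPM without and 82.4, 114 and 82.6 CPM with HME, and the median of the list, 0.60, was -0.002 without HME 2. Of 12 clock genes 7 were DE and higher, with BHLHE40 (log2 fold change 3.78, SE 0.59, adjusted p = 0.0102, leave-one-out 0.0559 without HME 3) and NFIL3 (log2 fold change 2.399, SE 0.39, adjusted p = 0.0116, leave-one-out 0.0629 without HME 3) past the adjusted test. The log2 fold change of ID3 was 3.02 without control 1 and that of BHLHE40 was 4.38 without control 3.

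The NRF2 list, which covers glutathione, thioredoxin and quinone defence, held 21 DE and higher genes of 29 tested (72.4%) and 1 lower (median 1.13), with 16 without HME 1 to 22 without control 2 higher when 1 library was left out. GCLC, the rate-limiting enzyme of glutathione synthesis, was at 42.9, 35.5 and 41.7 CPM without and 256, 178 and 237 CPM with HME (log2 fold change 2.48, SE 0.32, adjusted p = 0.00332). SRXN1, which repairs peroxiredoxins, was at 164, 62.4 and 119.6 CPM without and 615, 978 and 989.9 CPM with HME (log2 fold change 2.896, SE 0.43, adjusted p = 0.00798). SLC7A11, the cystine importer, was at 42.9, 38.5 and 31.5 CPM without and 120.3, 147 and 189.9 CPM with HME (log2 fold change 2.02, SE 0.33, adjusted p = 0.0113, leave-one-out 0.0726 without HME 3). All 3 rose with no overlap. The reductase AKR1C2 was at 389, 372 and 394 CPM without and 1185, 1272 and 1183 CPM with HME (log2 fold change 1.66, SE 0.29, adjusted p = 0.017, leave-one-out 0.086 without HME 3) and its close copy AKR1C1 at 1429, 2193 and 1609 CPM without and 4189, 3748 and 3611 CPM with HME (1.14, adjusted p = 0.0908), and reads may be shared between them. PRDX1 was at 2101, 2348 and 2377 CPM without and 3222, 3811 and 3064 CPM with HME (adjusted p = 0.31). HMOX1, AKR1B10, FTL and FTH1, among other members of the NRF2 list, also belong to liver lists above.

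ATF4 and amino acid stress targets were DE and higher in 15 of 23 cases and lower in 0 (median 1.27), and 10 rose (0 without HME 3 to 16 without control 2 when 1 library was left out). GDF15, STC2, CTH and SLC7A11, which rose, were also counted in lists above. ATF4 itself was DE and higher at 354, 281 and 497 CPM without and 1075, 975 and 678 CPM with HME (1.27, adjusted p = 0.0808). MTHFD2, of the mitochondrial folate cycle, was at 46.3, 44.7 and 58.3 CPM without and 176, 143 and 137 CPM with HME and rose (log2 fold change 1.61, SE 0.30, adjusted p = 0.0208, leave-one-out 0.0969 without HME 1). SLC3A2, the shared chain of amino acid transporters, was at 80.3, 77.7 and 81.2 CPM without and 223, 202 and 225 CPM with HME and rose (log2 fold change 1.44, SE 0.28, adjusted p = 0.0252, leave-one-out 0.131 without HME 3). NUPR1, a small chromatin protein of stressed cells, was at 33.98, 28.1 and 35.5 CPM without and 107, 131 and 107 CPM with HME and rose (log2 fold change 1.82, SE 0.30, adjusted p = 0.0124, leave-one-out 0.0652 without HME 3). PSAT1, of serine synthesis, was at 182, 130.3 and 278 CPM without and 289, 178 and 190.4 CPM with HME with overlapping groups.

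Of 23 tested genes of the unfolded protein response, 2 were DE and higher and 5 DE and lower (median -0.16). HSPA5, the main ER chaperone, was at 1896, 1158 and 1575 CPM without and 1454, 1439 and 1243 CPM with HME (adjusted p = 0.795). ERN1, a sensor of unfolded protein, was at 9.16, 9.79 and 9.42 CPM without and 22.1, 32.4 and 25.8 CPM with HME, which rose (log2 fold change 1.503, SE 0.33, adjusted p = 0.0402, leave-one-out 0.174 without HME 2). PDIA4 (-1.32), SDF2L1 (-1.42) and HYOU1 (-1.12) were DE and lower, each with control 2 as the highest control. Without it SDF2L1 was at -0.65 and HYOU1 at -0.52. In the heat shock list 5 of 20 were DE and higher, led by HSPA1A, the inducible HSP70, at 34.5, 19.6 and 38.05 CPM without and 85.7, 82.2 and 109 CPM with HME (log2 fold change 1.57, SE 0.34, adjusted p = 0.04, leave-one-out 0.17 without HME 3), whose reads may be shared with its copy HSPA1B.

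The list of metallothioneins, which bind zinc and copper, also holds the zinc exporter SLC30A1 and the transcription factor MTF1. Of its 7 tested members 5 were DE and higher, SLC30A1 among them (median 1.05). MT2A (ENSG00000125148, chr16:56643098-56643606, plus strand) was at 94.2, 103 and 188 CPM in the control libraries and 1875, 1861 and 1535 CPM with HME and rose (log2 fold change 3.77, SE 0.40, adjusted p = 0.00208, adjusted p at or below 0.0139 (reached without control 1)). MT1E was at 34.95, 10.4 and 42.8 CPM without and 212, 145 and 197 CPM with HME and rose (log2 fold change 2.63, SE 0.48, adjusted p = 0.0196, leave-one-out 0.0836 without HME 3). The zinc exporter SLC30A1 was DE and higher at 72.8, 25.1 and 54.4 CPM without and 81.6, 109 and 127 CPM with HME (1.05, adjusted p = 0.179).

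**Figure D4:**
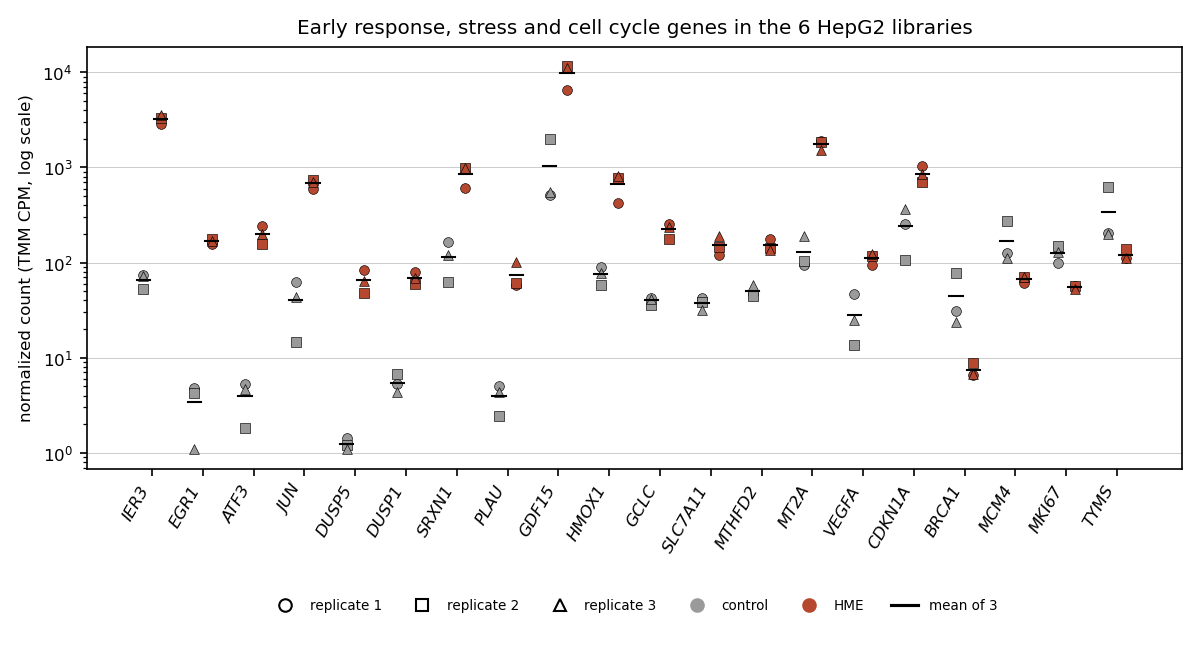
TMM-normalized CPM (log axis) of 20 early response, stress and cell cycle genes in the 3 control (grey) and 3 HME (red) HepG2 libraries, with a symbol for each replicate and a bar at the mean of 3. The genes from IER3 to CDKN1A lay above all controls with HME, and BRCA1, MCM4, MKI67 and TYMS lay below all controls.

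Hypoxia targets were DE and higher in 10 of 22 cases and lower in 2, with PFKFB3, HK2, SLC2A1 and EPO also counted in lists above. VEGFA, the vascular growth factor, was at 46.8, 13.5 and 25 CPM without and 93.8, 117 and 124 CPM with HME and rose (log2 fold change 1.95, SE 0.44, adjusted p = 0.0453, leave-one-out 0.159 without HME 3), as did NDRG1 at 81.5, 40.4 and 38.4 CPM without and 142, 242 and 232 CPM with HME (log2 fold change 1.93, SE 0.40, adjusted p = 0.0328, leave-one-out 0.14 without HME 3), while EPO fell. PGK1 and LDHA, glycolytic members of the list, had overlapping groups (280.3, 139.5 and 373 CPM without and 358, 535 and 290.4 CPM with HME for PGK1). In autophagy, GABARAPL1, which coats autophagosomes, was at 30.1, 17.1 and 23.9 CPM without and 136, 117 and 133 CPM with HME and rose (log2 fold change 2.42, SE 0.33, adjusted p = 0.00466), and the cargo receptor SQSTM1 was at 288, 162 and 333 CPM without and 1303, 936 and 1139 CPM with HME and rose (log2 fold change 2.11, SE 0.37, adjusted p = 0.0165, leave-one-out 0.0795 without HME 3). The list of 36 held 6 DE and higher (16.7%) and 2 lower (5.6%) genes.

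Of 34 tested p53 targets, 14 were DE and higher (41.2%) and 4 DE and lower (11.8%). The median was 0.42, with 12 without HME 1 to 16 without control 3 higher when 1 library was left out. CDKN1A, the inhibitor p21 of cell cycle kinases, was at 252, 106 and 364 CPM without and 1047, 696 and 844 CPM with HME (1.84, adjusted p = 0.059). BBC3, the death protein PUMA, was at 13.01, 7.95 and 38.05 CPM without and 328, 78.3 and 84.8 CPM with HME (3.04, 0.054). The size of the BBC3 difference rests on HME 1, without which the log2 fold change was 2.06 and the adjusted p 0.167, and without control 3 it was 3.94 with an adjusted p of 0.0479. Neither gene passed the adjusted test with all libraries, although all HME values exceeded the controls. GADD45A was at 25.3, 3.67 and 27.2 CPM without and 110.3, 119.6 and 133 CPM with HME and rose (log2 fold change 2.65, SE 0.57, adjusted p = 0.0358, leave-one-out 0.128 without HME 3). The phosphatase PPM1D was at 27.2, 6.73 and 17.03 CPM without and 109, 93.7 and 108 CPM with HME (log2 fold change 2.57, SE 0.46, adjusted p = 0.017, leave-one-out 0.0758 without HME 3). MDM2, which degrades p53, was at 154, 134 and 174 CPM without and 219.5, 218 and 176 CPM with HME (adjusted p = 0.434). BAX was at 42.4, 258 and 33.3 CPM without and 36.04, 41.3 and 47.8 CPM with HME. The 4 DE and lower members were XPC, TP53INP1, ZMAT3 and FDXR. With 1 library left out, their log2 fold changes lay from -1.91 to -1.21, -0.94 to -0.62, -1.16 to -0.46 and -1.24 to -0.44. XPC kept its DE call in all of these runs, while TP53INP1, ZMAT3 and FDXR each lost it in 4. Among 27 apoptosis regulators, 7 were DE and higher (25.9%) and 3 lower (11.1%). The survival gene MCL1 was at 118, 89.9 and 103 CPM without and 330.2, 298 and 309 CPM with HME (log2 fold change 1.59, SE 0.29, adjusted p = 0.0197, leave-one-out 0.102 without HME 3). The death gene BCL2L11 was at 19.8, 4.28 and 12.3 CPM without and 46.3, 67.8 and 67.98 CPM with HME (log2 fold change 2.26, SE 0.48, adjusted p = 0.0336, leave-one-out 0.129 without HME 3). Both MCL1 and BCL2L11 passed the adjusted test.

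Genes of DNA replication held DE and lower members and none that was DE and higher. Of 50 tested, 18 were DE and lower (36.0%), beside 10.9% of all tested genes, 32 were not called and none passed the adjusted test (median -0.70, 8 without HME 1 to 17 without control 3 lower when 1 library was left out). MCM4, of the replicative helicase, was at 126, 270.4 and 112 CPM without and 61.05, 70.1 and 71.3 CPM with HME (-1.32, adjusted p = 0.0942), GINS1 at 76.6, 69.1 and 48.9 CPM without and 30.2, 32.1 and 25.3 CPM with HME (-1.15, 0.076) and the clamp loader subunit RFC3 at 29.6, 25.7 and 33.3 CPM without and 15.1, 11.8 and 15.2 CPM with HME (-1.08, 0.0911). All HME values of these genes were below the controls. PCNA, the sliding clamp, was at 248, 663 and 213 CPM without and 195, 202 and 192 CPM with HME, and without control 2 its log2 fold change was -0.22. TYMS (-1.504, and -0.72 without control 2) and ORC1 (-1.39) were DE and lower.

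In mitosis 11 of 42 were DE and lower and 2 higher (median -0.55). MKI67, a marker of cycling cells, was at 97.8, 151 and 130.1 CPM without and 57.4, 57.3 and 52.8 CPM with HME (-1.18, adjusted p = 0.0676). PLK1 was at 119, 83.8 and 117 CPM without and 53.3, 45.5 and 57.3 CPM with HME (-1.04, 0.0924). TOP2A and AURKB had overlapping groups (109, 146 and 171 CPM without and 104, 113 and 89.9 CPM with HME for AURKB). PRC1 was DE and higher only through HME 2 (37.5, 442 and 65.2 CPM with HME). In double-strand break repair BRCA1 was at 30.9, 77.7 and 23.6 CPM without and 6.62, 8.85 and 6.74 CPM with HME and fell (log2 fold change -2.54, SE 0.50, adjusted p = 0.0252, leave-one-out 0.128 without HME 3, log2 fold change -1.85 without control 2), 5 of 30 were DE and lower, FANCD2 among them (-1.59, 0.0549), and the end-binding proteins XRCC5 and XRCC6 had overlapping groups. Without HME 2 the log2 fold change of PRC1 was 0.23.

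In the housekeeping lists, shares are to be read beside the 11.3% of all tested genes that were DE and higher and the 10.9% DE and lower. Of 77 respiratory chain and ATP synthase genes 10 were DE and lower (13%) and 0 higher, with 1 without HME 3 to 14 without control 1 lower when 1 library was left out and a median of 0.08 that was -0.10 with library-size scaling. Of 79 ribosomal protein genes 3, RPS18, RPS19 and RPL37, were DE and higher (3.8%, median 0.34), against 9 without control 2 and 0 with library-size scaling, and without HME 2 the difference of RPL37 was 0.4. Of 35 proteasome genes 1 was DE, the activator subunit PSME2, which was lower at 368, 1128 and 425 CPM without and 274, 182 and 134 CPM with HME (-1.699, adjusted p = 0.0904, and -0.99 without control 2). Of 49 ER translocation and vesicle transport genes 2 were DE and higher and 1 lower, and of 20 aminoacyl-tRNA synthetases 4 were DE and higher (20%), led by CARS at 38.1, 58.1 and 39.5 CPM without and 100.4, 93.04 and 94.9 CPM with HME (1.09). In ribosome biogenesis POLR1C rose (log2 fold change 1.43, SE 0.33, adjusted p = 0.0493, leave-one-out 0.156 without HME 1), and 4 of 27 were DE and higher (14.8%).

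Outside the lists, the largest increases included the small RNA genes RNU2-2P and SNORD13 and CSRNP1, a nuclear factor of the early response, at 9.16, 0.612 and 3.62 CPM without and 138, 106 and 108 CPM with HME (log2 fold change 4.56, SE 0.62, adjusted p = 0.00456). In RNU2-2P, a gene of the U2 small nuclear RNA family, HME 2 was far below the other HME libraries and still above all controls. SNORD13 was at 7.71, 4.28 and 1.45 CPM without and 128, 267 and 228 CPM with HME. The kit reads ends of polyadenylated transcripts, and whether the counts at RNU2-2P and SNORD13 come from the small RNAs themselves was not tested. The largest decreases included SPTLC3, a subunit of the first enzyme of sphingolipid synthesis, at 31.6, 37.3 and 35.9 CPM without and 8.46, 6.88 and 4.49 CPM with HME (log2 fold change -2.37, SE 0.36, adjusted p = 0.00819, leave-one-out 0.0629 without HME 3). HSPG2, the basement membrane proteoglycan perlecan, was at 23.4, 51.4 and 35.9 CPM without and 5.15, 7.86 and 7.303 CPM with HME and fell (log2 fold change -2.43, SE 0.41, adjusted p = 0.0138, leave-one-out 0.0782 without HME 3). RHBG, an ammonium transporter, was at 123, 224 and 187 CPM without and 49.6, 32.1 and 28.6 CPM with HME and fell (log2 fold change -2.27, SE 0.37, adjusted p = 0.0119, leave-one-out 0.0896 without HME 3). CLDN19, a tight junction protein, was at 20.97, 54.5 and 16.7 CPM without and 3.31, 4.91 and 3.93 CPM with HME and fell (log2 fold change -2.87, SE 0.53, adjusted p = 0.0197, leave-one-out 0.104 without HME 1). H6PD, which supplies NADPH inside the ER, was at 15.2, 44.05 and 18.8 CPM without and 5.15, 5.897 and 4.49 CPM with HME and fell (log2 fold change -2.28, SE 0.48, adjusted p = 0.0348, leave-one-out 0.157 without HME 3). Leaving out control 1 gave log2 fold changes of 5.62 for CSRNP1, 6.86 for RNU2-2P and 6.26 for SNORD13, and leaving out control 2 gave -2.18 for CLDN19 and -1.67 for H6PD.

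Promoters of the tested genes were searched for the short motifs given below, as a description of sequence. Motifs of p53, CEBPA and metal-responsive factors were not among them. RefSeq sequences from 250 bases before to 50 after the start (build GRCh38.p14) were matched by symbol or synonym to 8433 of 11343 tested genes, which gave 8341 different promoters. AP-1 (TGANTCA, either strand) was in 4.1% of all of them, in 11.47% of the 218 promoters of genes that rose and in 2.27% of the 44 of genes that fell. The cyclic AMP element CRE (TGACGTCA) was in 3.49% of all and 5.5% of those that rose, the NF-kB motif in 1.53% and 3.21%, and the ATF4 element (TGATGNAA) in 1.61% and 4.13%. Among genes that rose these shares were 12, 7 and 9 promoters. The CArG box bound by SRF was in 1.02% and 2.29%, the latter being 5 promoters. The core of the antioxidant response element (TGACNNNGC), which can overlap an AP-1 match, was in 15.62% and 16.06%. Motifs of the liver factor HNF4 (CAAAGTCCA) and of E2F (TTTGGCGC) were in 0.29% and 1.17% of all promoters. Among the 914 DE and lower genes they were in 0.55% and 1.97% (5 and 18 promoters). Among the 44 of genes that fell they were in 0 and 1, and among the 218 of genes that rose in 0 and 2. A match is neither a binding site nor a cause, and differences between these shares were not tested.

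The windows around 8 such matches, at genes that rose, are shown to place the motifs before the start, 5′ to 3′ on the strand of the gene, with the motif in capitals. Each was placed on GRCh37 by an exact match of the whole promoter.
EGR1 (CArG box, chr5:137801053-137801082, plus strand, 105 bases before the start): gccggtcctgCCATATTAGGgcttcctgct
IL8 (AP-1, chr4:74606138-74606166, plus strand, 137 bases before): aggaagtgtgaTGACTCAggtttgccctg
MT2A (AP-1, chr16:56642381-56642409, plus strand, 104 bases before): ggagccgcaagTGACTCAgcgcggggcgt
ARG2 (CRE, chr14:68086454-68086483, plus strand, 172 bases before): ccagagtggggTGACGTCAtcgaaggcacg
PPP1R15A (CRE, chr19:49375609-49375638, plus strand, 58 bases before): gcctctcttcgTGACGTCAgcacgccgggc
DUSP1 (CRE, chr5:172198305-172198334, minus strand, 125 bases before): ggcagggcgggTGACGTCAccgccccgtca
NFKBIA (NF-kB on the opposite strand, chr14:35874017-35874046, minus strand, 81 bases before): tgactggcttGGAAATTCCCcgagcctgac
GCLM (antioxidant response element on the opposite strand, chr1:94375002-94375030, minus strand, 34 bases before): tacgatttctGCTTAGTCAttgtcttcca
Of these genes PPP1R15A, which restores protein synthesis after stress, was at 4.34, 0 and 13.8 CPM without and 146, 62.9 and 62.4 CPM with HME (log2 fold change 3.83, SE 0.82, adjusted p = 0.0364). GCLM, the regulatory subunit of glutathione synthesis, was at 72.5, 160.3 and 45.7 CPM without and 279.9, 389.5 and 548 CPM with HME (log2 fold change 2.13, SE 0.49, adjusted p = 0.0498). The leave-one-out adjusted p was 0.128 without HME 1 for PPP1R15A and 0.184 without HME 3 for GCLM, and the log2 fold changes ranged from 3.33 without HME 1 to 5.06 without control 3 and from 1.81 without control 3 to 2.79 without control 2. The EGR1 and ARG2 promoters held 2 matches of the motif before the start, of which 1 is shown.

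**Figure D5:**
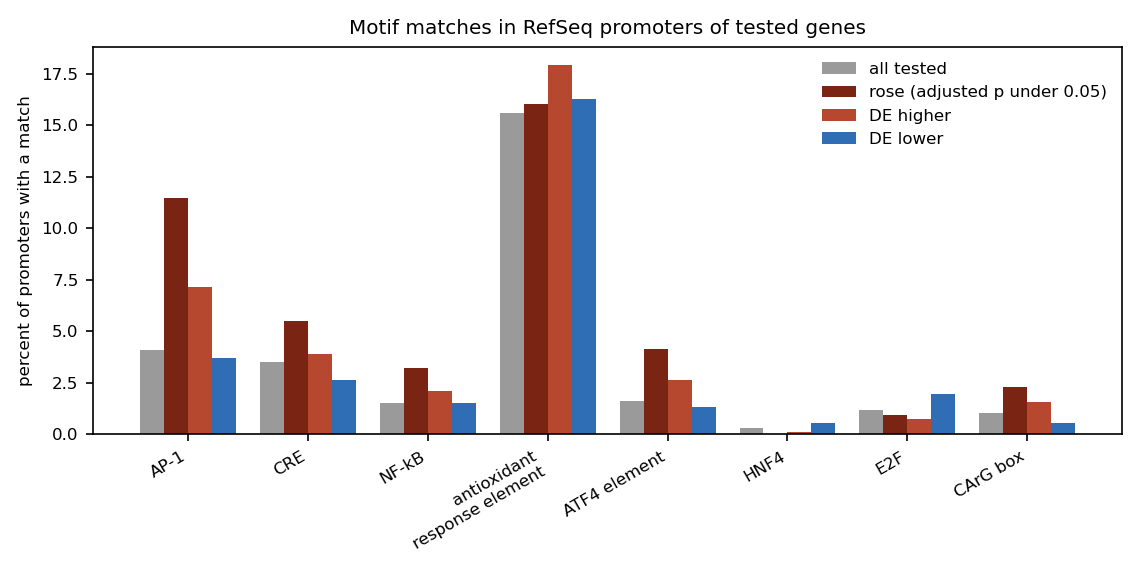
Percent of RefSeq promoters (y axis) with at least 1 match on either strand for each of 8 motifs (x axis), for all 8341 promoters of tested genes (grey), the 218 of genes that rose (dark red), the 949 DE and higher (red) and the 914 DE and lower (blue). AP-1 reached 11.47% among genes that rose beside 4.1% of all, and the antioxidant response element was near 16% in both.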

How the data were processed

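Per the labels and the study's methods, 3′ mRNA libraries of HepG2 cells were sequenced on an Ion Proton, and the authors aligned reads to hg19 with Hisat2 and counted them with metaseqR2. The deposited files hold raw counts per 3′ region, not normalized, and how multimapping reads and strand were treated is not given in the sources used here. Region counts were summed by gene identifier. Genes with low counts were removed with filterByExpr, libraries were scaled by TMM, and the 3 HME and 3 control libraries were compared with edgeR 4.0.16 (glmQLFit and glmQLFTest, R 4.3.3), with p-values adjusted by Benjamini-Hochberg. The SE is the log2 fold change divided by the square root of the F statistic. The DE thresholds (0.05 for p, 0.58 for the log2 fold change) follow the study. On simulated data with 200 genes changed 4-fold among 11343, the test found 112 (56%) at an adjusted p under 0.05, with 4 false calls. The simulated counts were drawn independently for each gene, without a library that stood apart as control 2 did, so these figures hold for that setting only. The gene lists and named genes were chosen with earlier results of these data known. Named genes were, in each list and direction, up to 8 members past the adjusted test and up to 4 DE members by lowest p, the 4 members highest in controls, the genes the study assayed by RT-qPCR, the cell type markers, and the 15 largest increases and decreases that passed the adjusted test without overlap and averaged at least 10 counts in the lower group. GCLM, PPP1R15A, GSTP1 and the members named as too low to test were chosen after their values were seen. Alternatives were DESeq2 1.42.0, other scalings and filters, a replicate block, a fit of all 12 libraries, and each library left out. Leaving out control 2 and HME 2 together was added after seeing the data. Promoter sequences are from RefSeq. The libraries of the other cell line entered only the fit of all 12. Some genes are not reported here.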

Additional observations from a re-analysis of the deposited data

How the results depend on the processing

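With DESeq2 623 genes rose and 410 fell (314 and 61 with edgeR). Library-size scaling gave 161 that fell and upper-quartile scaling 113. With every gene with a count tested, 821 rose, 586 fell and 1933 were DE and lower. With at least 10 counts in every library 154 rose and 34 fell, and in the fit of all 12 libraries 520 and 287. When 1 library was left out, between 94 and 675 genes rose, between 1 and 246 fell, and between 978 and 1675 were DE and higher and between 736 and 1421 DE and lower. With control 2 and HME 2 both left out, a choice made after seeing the data, 550 rose and 151 fell. With a DE call on either side, the direction turned for FOXA3 (log2 fold change -0.07, between -0.41 without control 3 and 1.02 without control 2, and 1.02 without both), ANXA2 (-0.01 without both), PRC1 (-0.21) and SPARC (-0.75). Over 392 named genes and these alternatives, 4981 of 5417 values kept their side of the DE thresholds, 345 lost the DE call, 86 gained it and 5 turned with a call on either side. Of the 4981, 4834 kept their sign and 147, from 66 genes, changed it without being DE in either fit. Between libraries with the same replicate number, deviations from the group means correlated at r = -0.166, 0.089 and -0.123. Between libraries with different numbers r lay from -0.2 to 0.307. With 3 libraries per group these values cannot show whether the numbers mark cultures handled together. With the replicate block 290 genes rose, 59 fell, 1153 were DE and higher and 918 DE and lower. At 1790841 to 3656662 counts per library, genes of a few CPM rest on few counts, and small differences in them were not detectable.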
